A study of Homo sapiens with 6 samples.

Results

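Dystrophin and the proteins that sit with it at the cell membrane were followed at the RNA level in the human kidney cancer cell line 786-O, which derives from a clear cell tumour. The 9 genes were taken by symbol from a table of read counts: DMD, UTRN, DAG1, SGCB, SGCE, SNTB1, SNTB2, DTNA and DTNB, out of 54261 symbols. All 9 passed the filter on low counts, among 14398 genes tested. The group was picked out because DMD was nearly absent from the knockout libraries, so the difference between the groups had already been seen. The knockout and control values of the 9 genes are therefore given as a description, with no test.

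The tested cells, labelled PHF8 knockout, received PHF8-sgRNA by CRISPR-Cas9 (3 libraries); the control cells, labelled PHF8 wildtype, received Ctrl-sgRNA by the same method (3 libraries). PHF8 is a histone demethylase that removes repressive methyl marks. Both groups grew in the same serum-containing medium, and the libraries held 21533615 to 29095133 counted reads. The labels name no clone, pool, guide sequence or separate cultures, so a p-value here covers only how far these libraries spread, and that spread may be technical.

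Dystrophin ties the actin cytoskeleton to dystroglycan, a receptor that spans the membrane and binds laminin and other matrix proteins through its sugar chains. Sarcoglycans stiffen this link in the membrane, and syntrophins and dystrobrevins form a signalling scaffold beneath it. In muscle, loss of dystrophin causes Duchenne muscular dystrophy. Utrophin is the close paralog of dystrophin and builds a like complex in many tissues, epithelia included.

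The labels were checked first. PHF8 had 259, 167 and 348 reads in knockout libraries 1, 2 and 3, against 833, 876 and 881 reads in the control libraries, so the knockout libraries kept 31.0%, 19.3% and 36.7% of the control mean. The renal markers PAX8 (7776 to 10439 reads in knockout and 5263 to 6103 in control libraries) and VIM were abundant, PAX2 had 64 to 94 reads in knockout and 157 to 166 in control libraries, CA9 had 11 to 19 reads in a library, and LRP2 had none. Of 22 skeletal muscle markers 16 had at most 5 reads in every library, with MYOD1, MYF5, ACTN3 and TNNI1 at 0 throughout. Their summed level was 107 to 122 CPM in knockout and 63.5 to 69.5 CPM in control libraries, most of it TNNT1, a troponin subunit gene (2333 to 2819 reads in knockout and 1458 to 1509 in control libraries). These levels are in CPM, the read count scaled to library size with trimmed-mean (TMM) factors.

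Most markers of other cell types had few reads, with NEFL, MBP, SNAP25 and CD68 as the abundant exceptions. Their part in the results was not tested. Summed levels were 200 to 224 CPM in knockout and 131 to 140 CPM in control libraries for 8 neuron and glia genes (5 with at most 5 reads in every library). They were 112 to 122 CPM and 43.95 to 48.2 CPM in knockout and control libraries for 6 leukocyte genes, where PTPRC and CD3E were among those at 0 and CD68 held nearly all. The 7 fibroblast genes summed to 0.73 to 1.62 CPM in knockout and 3.99 to 4.28 CPM in control libraries, and the 5 endothelial genes to 2.96 to 4.52 CPM in knockout and 2.05 to 2.32 CPM in control libraries. In bulk RNA, fewer cells of a type and less RNA per cell cannot be told apart.

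The canonical start sites of DMD and UTRN differ in base composition, and that of DTNA shares the low CpG content of DMD. These 3 windows are shown because DMD and UTRN were the lowest of the group relative to control cells and DTNA the highest. Each window runs from 250 bases before to 50 bases after the start of the canonical transcript, with CpG dinucleotides in capitals and the gene's own strand printed (RefSeq, GRCh38.p14). DMD lies at chrX:33211500-33211799 on the minus strand, UTRN at chr6:144285085-144285384 on the plus strand and DTNA at chr18:34710048-34710347 on the plus strand.
DMD: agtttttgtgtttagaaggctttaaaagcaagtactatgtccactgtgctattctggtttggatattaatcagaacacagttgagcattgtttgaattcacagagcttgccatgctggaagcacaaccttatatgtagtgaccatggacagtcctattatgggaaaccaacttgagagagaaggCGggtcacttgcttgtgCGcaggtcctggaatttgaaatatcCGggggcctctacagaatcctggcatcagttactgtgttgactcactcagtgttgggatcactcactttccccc
UTRN: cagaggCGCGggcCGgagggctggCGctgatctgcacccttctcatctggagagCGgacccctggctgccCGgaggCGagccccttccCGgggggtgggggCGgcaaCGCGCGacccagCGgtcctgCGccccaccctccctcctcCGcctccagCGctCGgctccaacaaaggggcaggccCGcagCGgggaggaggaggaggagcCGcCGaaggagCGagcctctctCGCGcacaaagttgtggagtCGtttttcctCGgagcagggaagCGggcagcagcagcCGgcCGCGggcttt
DTNA: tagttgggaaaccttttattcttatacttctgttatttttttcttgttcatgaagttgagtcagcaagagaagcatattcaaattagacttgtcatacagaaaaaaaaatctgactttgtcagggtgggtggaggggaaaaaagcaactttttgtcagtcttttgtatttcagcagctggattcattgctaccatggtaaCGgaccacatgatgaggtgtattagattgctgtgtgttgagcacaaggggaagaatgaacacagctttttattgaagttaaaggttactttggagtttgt

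Counted on a single strand, where CG reads the same on the other, the DMD window held 3 CpG, the UTRN window 30 and the DTNA window 1. The median over 35116 RefSeq windows of this length was 14, and 24.5% of them held no more than the DMD window. DMD has 7 such windows, which held 2 to 9 CpG each. The canonical windows of SNTB2, SGCB, DAG1 and DTNB held 28, 30, 47 and 55. The CpG-poor canonical windows of DMD and DTNA belong to the gene with the lowest and the gene with the highest fold change. The windows shown were picked by those fold changes, so no link between CpG content and fold change is read from them. Other windows of the same genes differed, with 7 CpG in another UTRN window, 2 in another DTNB window and up to 10 in those of DTNA. Which start sites the cells used was not tested. A match to letters is a description of the sequence only. No window is shown for SGCE and SNTB1.

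DMD encodes dystrophin and spans 2241933 bases of the X chromosome (31097677 to 33339609, minus strand, GRCh38 with GENCODE v44 annotation). It had 0, 0 and 29 reads in knockout libraries 1, 2 and 3, against 210, 303 and 346 reads in control libraries 1, 2 and 3. The groups did not overlap, and the remaining knockout reads came from library 3. The level was 0.36 ± 0.62 CPM in knockout and 11.4 ± 1.95 CPM in control cells (SD, n = 3 each).

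Counting error was small beside this difference. With exact 95% Clopper-Pearson intervals, knockout library 3 lay at 1.07 CPM (0.71 to 1.53), and the control libraries at 9.21 (8.01 to 10.5), 12.1 (10.8 to 13.6) and 12.9 CPM (11.6 to 14.4). For knockout libraries 1 and 2, with 0 reads, the exact intervals reached up to 0.15 CPM in each. A fixed floor of 3 reads, or 0.12 CPM in each, was used for the fold difference. Taken over both libraries that floor is 0.061 CPM. Set against it, DMD was 186-fold lower there than the control mean, which was taken without error. That value depends on the fixed floor and is not a limit from the exact intervals. In library 3 DMD was 10.7-fold lower. Intervals and floors cover counting error only.

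Full absence at this depth was rare. Of 8796 genes with at least as many mean control reads as DMD (286), 3 had 0 reads in both knockout libraries 1 and 2, namely DMD, GLUL (the glutamine synthetase gene) and GSTP1. GSTP1, a glutathione transferase gene, also had reads in knockout library 3 (0, 0 and 310, against 619, 676 and 705 in the control libraries), whereas GLUL had none in any knockout library. GLUL and GSTP1 were named after their values were seen. DMD was chosen for its near absence, so its place among these genes is only a description. The cut at 0 reads leaves out genes with very few, such as DNAJC15 with 1 and 2 reads in those libraries. DMD has several promoters that give long and short products, and a single count per gene cannot tell which products the control cells made.

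UTRN, on chromosome 6 (144285335 to 144853034), encodes utrophin. It had 460, 157 and 494 reads in the knockout libraries, against 1044, 1767 and 1804 in the control libraries. All 3 knockout libraries lay below all 3 control libraries, with knockout library 2 the lowest. The level was 14.6 ± 7.13 CPM in knockout and 61.3 ± 13.5 CPM in control cells (SD, n = 3 each), a log2 fold change of -2.07 (SE 0.36). Dystrophin and utrophin reads together came to 14.9 ± 7.42 CPM in knockout and 72.7 ± 15.4 CPM in control cells (SD, n = 3 each).

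**Figure D1:**
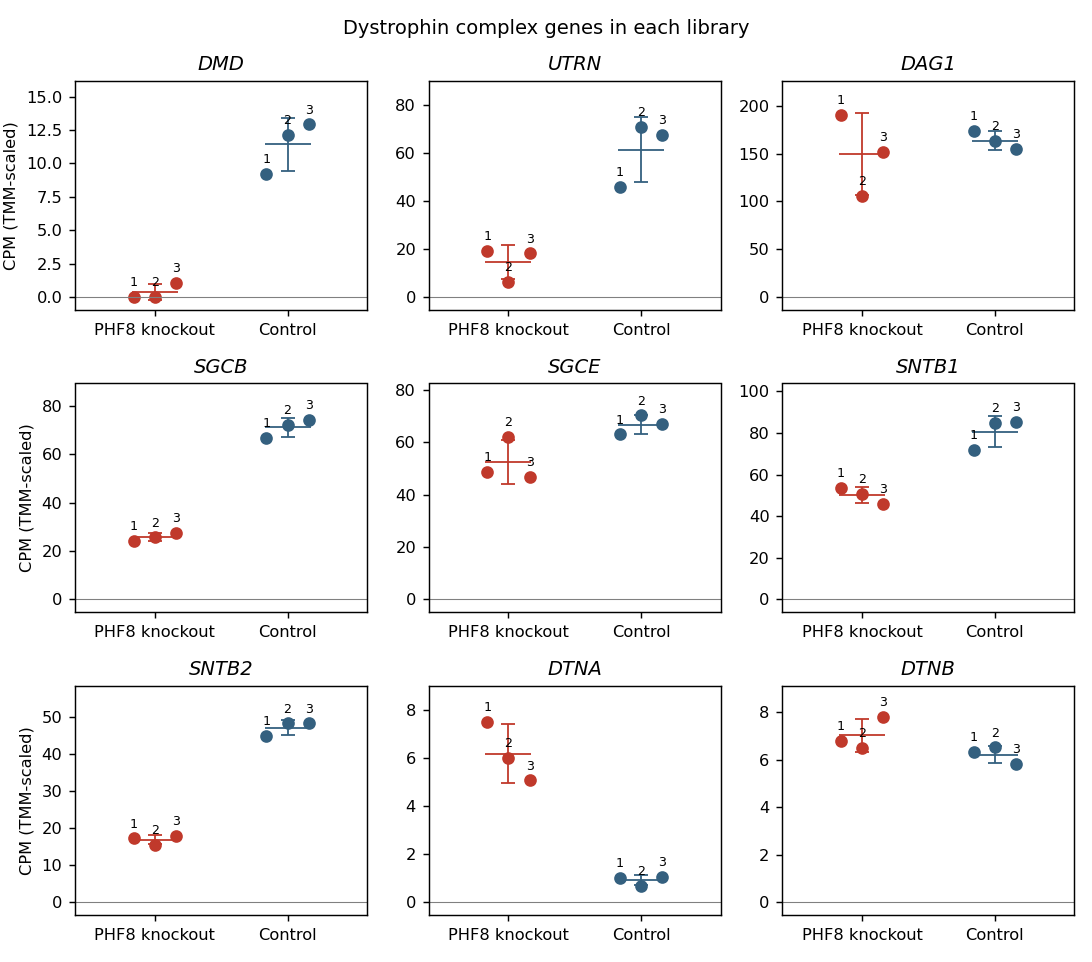
Level of each of the 9 genes in CPM (TMM-scaled, linear axis), with PHF8 knockout libraries at the left and control libraries at the right of each panel. Points are libraries with their replicate number, and bars are the mean ± SD of 3 libraries. DMD, UTRN, SGCB, SGCE, SNTB1 and SNTB2 lie lower and DTNA higher in every knockout library, while the groups overlap for DAG1 and DTNB.

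DAG1, on chromosome 3, encodes dystroglycan, the laminin receptor of the complex. It had 4580, 2621 and 4133 reads in the knockout libraries, against 3951, 4068 and 4135 in the control libraries. The groups overlapped, and knockout libraries 1 and 2 were the highest and the lowest of the 6 on the CPM scale. The level was 149 ± 42.5 CPM in knockout and 164 ± 9.46 CPM in control cells (SD, n = 3 each), with a log2 fold change of -0.13 (SE 0.18). Leaving out knockout library 2 moved that value to 0.07.

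The sarcoglycans differed in size of change. SGCB, the beta-sarcoglycan gene on chromosome 4, had 579, 636 and 750 reads in the knockout libraries, against 1521, 1806 and 1993 in the control libraries. Its level was 25.8 ± 1.73 CPM in knockout and 71.2 ± 3.98 CPM in control cells (SD, n = 3 each), a log2 fold change of -1.46 (SE 0.10). The knockout libraries kept 33.9%, 36.1% and 38.7% of the control mean, a range about as narrow as that of SNTB2.

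SGCE, the epsilon-sarcoglycan gene on chromosome 7, is found in many tissues besides muscle. It had 1174, 1538 and 1270 reads in the knockout libraries, against 1438, 1757 and 1795 in the control libraries. The groups did not overlap on the CPM scale, but knockout library 2 kept 92.9% of the control mean, and the log2 fold change was -0.35 (SE 0.13). The annotated span of SGCE overlaps PEG10 on the other strand, which had 2596 to 3640 reads in knockout and 10475 to 13656 in control libraries. The strand setting of the counting is not given in the sources used here, so the SGCE counts are uncertain to that extent. SNTB1 overlaps MTBP on the other strand, and SNTB2 overlaps UTP4 on its own strand.

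Both beta-syntrophin genes were lower. SNTB1 had 1290, 1259 and 1251 reads in the knockout libraries, against 1640, 2117 and 2279 in the control libraries, a log2 fold change of -0.68 (SE 0.11). SNTB2, on chromosome 16, had 412, 382 and 483 reads in the knockout libraries, against 1019, 1203 and 1289 in the control libraries, a log2 fold change of -1.49 (SE 0.11). Neither gene's groups overlapped. The knockout libraries kept 57.0% to 66.6% of the control mean for SNTB1 and 32.8% to 37.8% for SNTB2.

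Among the dystrobrevins, DTNA was higher and DTNB overlapped between the groups. DTNA, the alpha-dystrobrevin gene on chromosome 18, had 180, 149 and 138 reads in the knockout libraries, against 23, 17 and 28 in the control libraries. The groups were far apart, at 6.19 ± 1.22 CPM in knockout and 0.91 ± 0.20 CPM in control cells (SD, n = 3 each), a 6.75-fold higher level (log2 fold change 2.76, SE 0.24). DTNB, the beta-dystrobrevin gene on chromosome 2, had 163, 161 and 213 reads in the knockout libraries, against 144, 163 and 156 in the control libraries. Its log2 fold change was 0.18 (SE 0.15).

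In the edgeR quasi-likelihood fit across all genes, with a Benjamini-Hochberg adjusted p under 0.05 as the threshold, 6 of the 9 genes were on the lower side of the threshold, 1 on the higher side and 2 not past it. Of all tested genes 59.7% were called, 30.8% lower and 28.9% higher. The knockout libraries lay wholly below the control libraries for 6 of the 9 and wholly above for 1, against 34.2% and 32.6% of all tested genes. The median log2 fold change was -0.68 over the 9 genes and -0.01 over all tested genes. Nothing is read from these counts, since the contrast was known when the genes were chosen. The SGCE call was absent in 5 of the 6 fits that left out a single library. With library totals in place of TMM factors, the median of all tested genes moved to -0.18 and 36.7% of calls were higher, against 48.4%.

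Length and base composition moved with these differences. The canonical DMD and UTRN transcripts are 13992 and 12918 bases long, with 42.3% and 43.3% GC. Which products the cells made was not tested, so these lengths, used also for the offset below, may not be those expressed. Among 239 other tested genes within 1.5-fold of DMD's transcript length and 3 points of its GC content, the median log2 fold change was -0.94, and 1 gene lay lower than DMD. For UTRN there were 270 such genes with a median of -0.82, and 12 of them lay lower. The genes like DMD were also uneven within groups, with medians of -0.77, -1.17 and -0.73 in knockout libraries 1, 2 and 3, and of -0.20, 0.09 and 0.10 in control libraries 1, 2 and 3 (log2, relative to the control mean). DMD and UTRN were lowest among the control libraries in control library 1, and UTRN lowest of all in knockout library 2.

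SNTB2 and SGCB lay closer to genes of their own length and GC content. The medians of such genes were -0.94 for SNTB2 (666 genes, 122 lower than SNTB2) and -0.73 for SGCB (1259 genes, 174 lower than SGCB). SNTB1, at -0.68, had 579 of 1410 such genes below it. DTNA stood apart on the other side, with 5 of 1098 such genes higher than it and a median of -0.63 among them.

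An offset that removes smooth trends in transcript length and GC content per library, and with them any group difference that follows either, gave smaller differences for the lower genes. The log2 fold changes with the offset were -3.88 for DMD, -1.15 for UTRN, -0.82 for SGCB, -0.53 for SNTB2 and -0.32 for SGCE. SNTB1 lay at -0.16 and was no longer past the threshold, DTNB changed sign to -0.21, and DTNA lay at 3.45. With the offset 5 of the 9 genes were past the threshold on the lower side and 1 on the higher side, against 27.8% and 30.3% of all tested genes. As above, nothing is read from these counts.

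**Figure D2:**
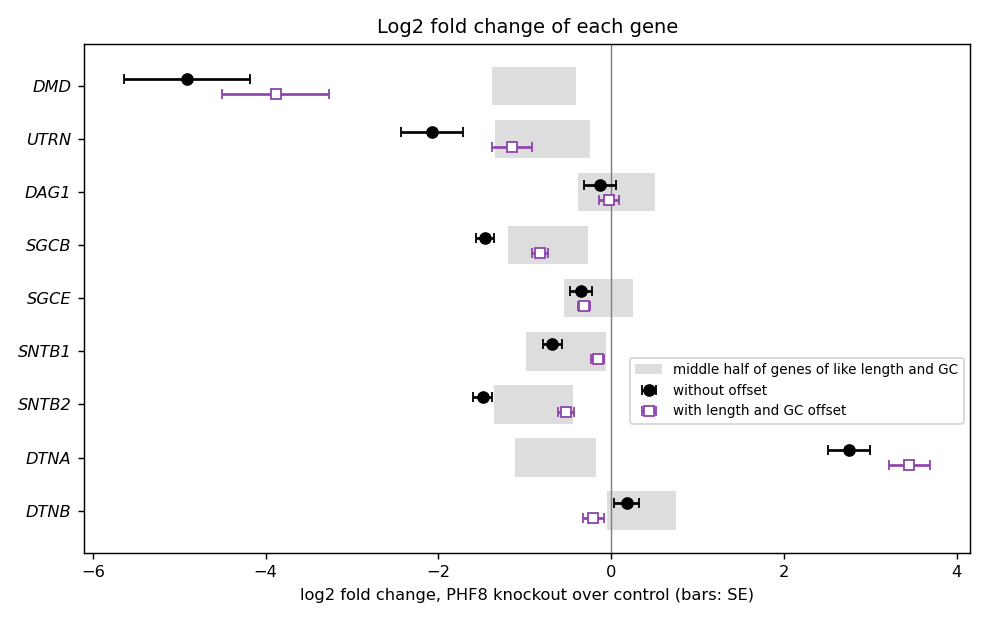
Log2 fold change of PHF8 knockout over control for each gene, without (black circles) and with (open squares) the length and GC offset. Whiskers are SE, and grey boxes run from the lower to the upper quartile of tested genes of like transcript length and GC content, without the offset. The circles of DMD (-4.91), UTRN (-2.07), SGCB (-1.46), SNTB2 (-1.49) and DTNA (2.76) lie outside their boxes. Those of DAG1, SGCE, SNTB1 (-0.68) and DTNB lie inside.

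Levels can be set beside each other only per length, here as CPM per kb of canonical transcript. Where the cells made a shorter product, as is possible for DMD, the level per kb would be understated. In knockout cells SGCE and DAG1 were highest, at 28.1 ± 4.45 and 27.7 ± 7.90 CPM per kb, within their spread of each other. SNTB1 (10.2 ± 0.79), SGCB (6.07 ± 0.41) and DTNB (2.91 ± 0.29) followed, then SNTB2 at 1.72 ± 0.12. UTRN (1.13 ± 0.55) and DTNA (0.94 ± 0.19) did not differ beyond their spread, and DMD was lowest at 0.025 ± 0.044 CPM per kb (SD, n = 3).

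In control cells the order was led by SGCE at 35.8 ± 1.94 and DAG1 at 30.4 ± 1.76 CPM per kb. SGCB (16.8 ± 0.94) and SNTB1 (16.3 ± 1.52) were within their spread of each other, as were SNTB2 (4.82 ± 0.20) and UTRN (4.75 ± 1.05). DTNB stood at 2.58 ± 0.15, DMD at 0.82 ± 0.14 and DTNA last at 0.14 ± 0.031 CPM per kb (SD, n = 3). DMD was thus last in knockout cells and DTNA last in control cells.

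Shares within a family do not depend on the scaling of libraries, though they still carry differences in length and GC content. They also rest on canonical lengths, so the DMD share would be understated if the cells made a short product. DMD made up 0%, 0% and 5.14% of dystrophin and utrophin reads per kb in the knockout libraries, against 15.7%, 13.7% and 15.0% in the control libraries. UTRN was therefore the larger share in all 6 libraries. DTNA made up 28.9%, 25.4% and 19.2% of dystrobrevin reads per kb in the knockout libraries, against 5.55%, 3.69% and 6.19% in the control libraries. Dystrobrevin reads in all came to 13.2 ± 0.93 CPM in knockout and 7.14 ± 0.23 CPM in control cells (SD, n = 3 each).

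Between the beta-syntrophin genes, SNTB2 made up 13.9%, 13.3% and 16.4% of reads per kb in the knockout libraries, against 23.9%, 22.4% and 22.3% in the control libraries. All 3 knockout libraries lay below all 3 control libraries, with SNTB1 the larger share throughout. Reads of both genes together came to 66.9 ± 3.63 CPM in knockout and 128 ± 9.49 CPM in control cells (SD, n = 3 each).

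**Figure D3:**
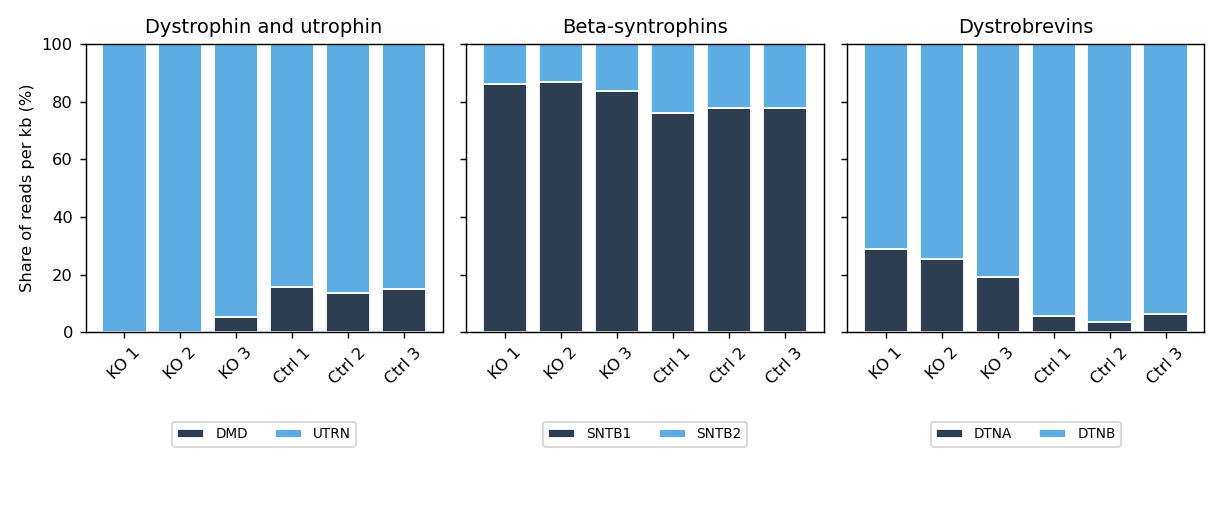
Share of each gene in the reads per kb of canonical transcript of its family, in percent, for knockout (KO) libraries 1 to 3 at the left and control (Ctrl) libraries 1 to 3 at the right. DMD drops out of the dystrophin and utrophin bar in KO 1 and KO 2, and the DTNA share is larger in every KO library than in any Ctrl library.

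Of 12 further genes of the complex, 9 had at most 5 reads in every library, among them the muscle sarcoglycan genes SGCA and SGCD and the neuronal nitric oxide synthase gene NOS1. Of the 3 that were tested, DRP2 and SSPN fell. Over all tested genes 30.8% fell and 28.9% rose. DRP2 encodes dystrophin-related protein 2. It fell to 10, 11 and 14 reads in the knockout libraries, against 44, 38 and 60 in the control libraries (log2 fold change -2.04, SE 0.27, edgeR adjusted p = 2.55e-04). SSPN, which encodes the tetraspanin-like sarcospan, fell to 50, 51 and 46 reads in the knockout libraries, against 75, 106 and 91 in the control libraries (log2 fold change -0.91; edgeR adjusted p = 0.0032).

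DRP2 lay at -1.63 under the length and GC offset, and SSPN at -0.28, no longer past the threshold.

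Dystroglycan binds laminins, agrin, perlecan and related matrix proteins. Of 12 tested ligand genes 5 rose and 3 fell, with a median log2 fold change of 0.35. The shares of all tested genes called were 28.9% higher and 30.8% lower. The offset gave 8 rises and 2 falls (median 0.63), and library totals only gave 5 falls. LAMA1, the laminin alpha-1 chain gene, rose to 293, 153 and 337 reads in the knockout libraries, against 29, 38 and 24 in the control libraries (log2 fold change 3.06, SE 0.32; edgeR adjusted p = 6.91e-05). AGRN, which encodes agrin, rose to 1504 ± 308 CPM in knockout cells, against 733 ± 6.18 CPM in control cells (SD, n = 3 each; edgeR adjusted p = 2.78e-04). EGFLAM, the pikachurin gene, fell 2.12-fold (edgeR adjusted p = 6.78e-05), and LAMA4 fell to 4, 7 and 14 reads in the knockout libraries, against 25, 20 and 34 in the control libraries. LAMA4 was not past the threshold with the offset (log2 fold change -1.03; edgeR adjusted p = 0.053).

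SLIT2, a guidance ligand gene singled out after its values were seen, had the same split among knockout libraries as DMD. It had 1, 4 and 55 reads in knockout libraries 1, 2 and 3, against 138, 146 and 156 in the control libraries (log2 fold change -2.93, SE 0.71; edgeR adjusted p = 0.0061).

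The sugar chains that let dystroglycan hold laminin are built by a series of enzymes. Of 17 tested genes of this route 8 rose, 2 fell and 7 were not past the threshold (median 0.38). Among all tested genes 28.9% rose and 30.8% fell. The offset left 3 rises and 2 falls in this route (median 0.05), and library totals only left 4 rises. DPM1 and DPM2, subunits of the enzyme that makes the mannose donor, rose 1.85-fold and 1.62-fold (edgeR adjusted p = 0.0023 and 6.82e-04). With the offset DPM2 lay at 0.049 and lost its call, while DPM1 (0.95) stayed past the threshold. The count of 2 falls was 1 with DESeq2 and without knockout library 1 or 3 or control library 2 or 3.

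Of 16 tested cytoskeletal and signalling partners 4 rose and 7 fell (median -0.19), which became 3 rises and 8 falls under the offset. Without the offset, 28.9% of all tested genes rose and 30.8% fell. ABCA1, a cholesterol exporter known to bind syntrophins, fell 1.98-fold (edgeR adjusted p = 4.27e-04). ANK2, an ankyrin gene, and KIF5B, a kinesin heavy chain gene, fell 2.14-fold and 2.12-fold, and DTNBP1, the dysbindin gene, rose 1.65-fold (edgeR adjusted p = 8.48e-04, 0.0014 and 7.45e-04). With the offset ABCA1 lay at -0.21 and stayed past the threshold, while ANK2 (-0.27), KIF5B (-0.24) and DTNBP1 (0.18) did not. The count of 4 rises was 1 without knockout library 1, control library 2 or control library 3, and 1 with library totals only.

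Laminin receptors outside the complex moved both ways, with 1 of 5 tested genes higher and 2 lower. ITGA6, an integrin alpha chain gene, fell 2.61-fold (edgeR adjusted p = 8.18e-05) and stayed past the threshold with the offset (-0.71). BCAM, the Lutheran receptor gene, rose 1.64-fold and ITGB1, the common integrin beta chain gene, fell 1.38-fold (edgeR adjusted p = 0.0025 and 0.0035). Neither call held with the offset, where BCAM lay at 0.21 and ITGB1 at 0.040 (reversed). The count of rises was 2 without knockout library 2 and with DESeq2, median-ratio factors, the replicate block, no filter or a stricter filter. The shares of all tested genes called were 28.9% higher and 30.8% lower, as above.

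The 5 genes with the pattern most like DMD were DNAJC15, CENPV, GALNT6, WASF3 and CCDC152. Likeness was the Euclidean distance over the 6 libraries between log2 values centred on each gene's control mean, among 5296 tested genes with a control mean within 3-fold of DMD's, and the distances ran from 1.38 to 1.94. DNAJC15, a mitochondrial co-chaperone gene, had 1, 2 and 128 reads in knockout libraries 1, 2 and 3, against 408, 478 and 494 in the control libraries. GALNT6, an O-glycosyltransferase gene, had 2, 0 and 64 reads in the knockout libraries, against 197, 240 and 252 in the control libraries. In all 5 genes and in DMD, knockout library 3 kept the most, from 7.75% of the control mean in CCDC152 to 25.5% in GALNT6.

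CENPV, a centromere protein gene, kept 0.85%, 0.41% and 16.9% of the control mean in knockout libraries 1, 2 and 3. WASF3, an actin regulator gene, kept 0.82%, 1.20% and 21.1%. CCDC152 kept 0%, 2.69% and 7.75% there. These genes were picked by their values in the same libraries, so the likeness is a description. CENPV, GALNT6 and CCDC152 overlap the annotated spans of PIGL, SLC4A8 and SEPP1 on the other strand.

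**Figure D4:**
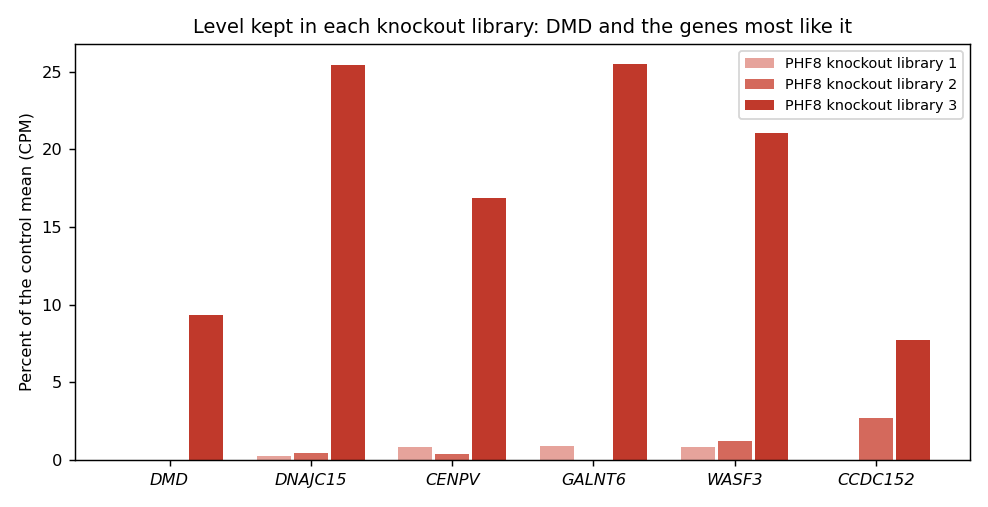
Level of DMD and of the 5 genes most like it in PHF8 knockout libraries 1, 2 and 3, as a percent of the gene's control mean in CPM. Each bar is 1 library. DMD shows no bar in libraries 1 and 2 and 9.33% in library 3, and the tallest bar of every gene is that of library 3.

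Genes beside DMD did not share its level. Within 5 Mb on either side lie 33 protein-coding genes, of which 10 were tested, 4 of them higher and 5 lower, with log2 fold changes from -1.22 to 3.08. TAB3, a signalling adaptor gene 0.12 Mb away and the nearest tested gene on its side, fell to 265, 255 and 342 reads in the knockout libraries, against 399, 624 and 748 in the control libraries (log2 fold change -1.06, SE 0.18; edgeR adjusted p = 9.86e-04). TMEM47, a membrane protein gene 1.29 Mb away on the other side, rose to 130, 136 and 114 reads in the knockout libraries, against 54, 71 and 83 in the control libraries (log2 fold change 0.85, SE 0.19; edgeR adjusted p = 0.0037). PHF8 itself lies 20.6 Mb from DMD on the same chromosome. Across 408 tested protein-coding genes of the X chromosome, 108 rose and 151 fell, with a median log2 fold change of -0.14. Of all tested genes, 28.9% were called higher and 30.8% lower.

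**Figure D5:**
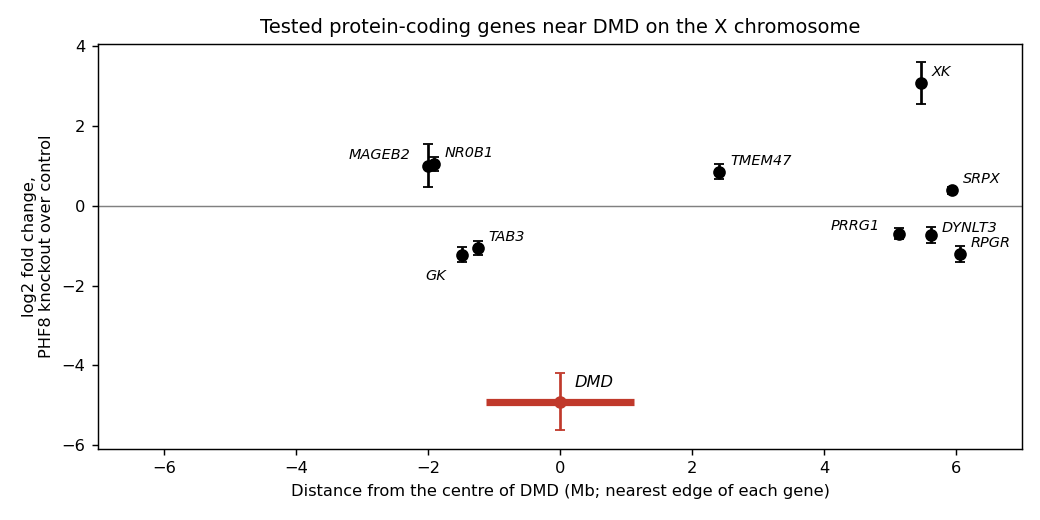
Log2 fold change of PHF8 knockout over control (whiskers, SE) for DMD, whose length is drawn as a red bar, and for the 10 tested protein-coding genes within 5 Mb, by distance from the centre of DMD in Mb. The neighbours lie between -1.22 and 3.08 on both sides, and DMD lies at -4.91.

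DMD is among the longest human genes, so genes of like span were set beside it. Of 29 tested protein-coding genes that span 1 Mb or more, 11 were called lower and 5 higher, DMD included, with a median log2 fold change of -0.44. Over all tested genes 30.8% were called lower and 28.9% higher. In genes under 10 kb the median was 0.41, and in those of 300 kb to 1 Mb it was -0.66. With the length and GC offset the medians were 0.032 under 10 kb, -0.15 from 300 kb to 1 Mb and -0.0038 at 1 Mb or more. After DMD the next lowest were MAGI2 (-2.58), a scaffold gene with 19 reads at most, and ROBO1 (-2.47), a guidance receptor gene (edgeR adjusted p = 0.0011 and 1.62e-05). ROBO1 fell to 109, 87 and 150 reads in the knockout libraries, against 511, 670 and 700 in the control libraries. At the other end stood LINGO2 (3.61), with 19, 15 and 20 reads in the knockout libraries, against 1, 0 and 3 in the control libraries, NRXN3 (1.005) and PTPRN2 (0.87).

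TENM2, a teneurin adhesion gene also over 1 Mb and singled out after its values were seen, had 0, 1 and 113 reads in knockout libraries 1, 2 and 3, against 111, 136 and 154 in the control libraries. It was not past the threshold (log2 fold change -1.89, SE 0.96; edgeR adjusted p = 0.115). PTPRD, a receptor phosphatase gene with a longer span than DMD, fell to 946, 584 and 1019 reads in the knockout libraries, against 961, 1266 and 1363 in the control libraries (log2 fold change -0.52, SE 0.19; edgeR adjusted p = 0.037). It was also picked after its values were seen.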

How the data were processed

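RNA-seq was analysed for 3 PHF8 knockout and 3 control libraries of 786-O cells. RNA came from a Trizol extraction and Illumina libraries, per the labels' protocols. Per the series design text in the labels, reads were mapped to GRCh38 with HISAT2 (2.0.4, per the submitters' processing notes) and counted with HTSeq. For HTSeq, no version or strand setting was found in those sources. What the authors deposited is a table of unnormalized read counts by gene symbol; each column carries its sample's title.

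Knockout was compared with control in R 4.3.3 with edgeR 4.0.16 (quasi-likelihood test; limma 3.58.1 for voom), using TMM factors (0.94 to 1.07) and filterByExpr, with p-values adjusted over 14398 genes. Each SE was taken from the fold change and the F statistic. Spans, lengths and GC content come from GENCODE v44 on GRCh38 matched by symbol (92.4% of tested genes). Promoter windows are RefSeq's; 7 of the 9 genes matched.

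The genes and lists were chosen with earlier results of these data known. Named are the 9 genes, PHF8, up to 4 called genes with the smallest p per list, any of the 12 further complex genes with at least 10 reads in a library, the 5 genes most like DMD (log2 of CPM plus 0.125), its nearest tested neighbours, and the 3 lowest and 3 highest genes of 1 Mb or more; exceptions are marked. Some genes named by this rule are not reported here. Alternatives were median-ratio factors, library totals, no filter, a stricter filter, DESeq2 1.42.0, limma-voom, a replicate block, a length and GC offset (lowess) and leaving out each library. Comparisons with genes of like length and GC, and shares within families, were added after seeing the data. The fit was tested on simulated data. No libraries of a group were duplicates (chi-square per degree of freedom 3.10 to 74.3). Knockout library 2 stood furthest from its group, at 74.3 and 57.5 from libraries 1 and 3, which were 11.1 from each other.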

Additional observations from a re-analysis of the deposited data

How the results depend on the processing

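The count of called genes, 8593, ran from 8142 to 9263 over the other fits and from 7170 to 9542 when single libraries were left out. In the wider lists 19 rises and 16 falls were called; rises numbered 11 with library totals only, and 13 to 26 (falls 14 to 16) when single libraries were left out.

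With the length and GC offset the log2 fold changes were -3.88 (DMD), -1.15 (UTRN), -0.82 (SGCB), -0.16 (SNTB1), -0.53 (SNTB2), 3.45 (DTNA) and -0.21 (DTNB). With library totals only they were -1.63 (SGCB), -0.51 (SGCE), -0.85 (SNTB1), -1.66 (SNTB2) and 0.0099 (DTNB). Each of these moved by more than the SE of its log2 fold change in the main fit. The cause was not tested. DMD lay at -7.21 with limma-voom and from -11.14 to -4.34 when single libraries were left out. The lowest value, without knockout library 3, leaves the knockout group at 0 reads, so its size depends on the prior count and is no bound. ITGB1 (0.040) reversed with the offset.

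Same-numbered libraries did not deviate together (correlations 0.020, -0.044 and 0.011 for numbers 1, 2 and 3), so the numbers were not taken as pairs. With the replicate block 8308 genes were called, and the log2 fold changes of DMD and UTRN were -5.18 and -2.17. Genes with few reads, such as DRP2 and LAMA4, are limited by depth.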
